A study of Mus musculus with 9 samples.

Results

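A set of 10 genes known for messages made in the growing oocyte were followed in mouse embryos at E2.75, the morula stage: Zp1, Zp2, Zp3, Gdf9, Bmp15, Oosp1, Zar1, Mos, Figla and Nobox. They were taken by gene name, and all 10 were found among the 20087 named genes of the table. Embryos of the B6D2F1 background were injected as zygotes with siRNA against Hdac1 and Hdac2 together (Hdac1/2 cKD), against Sin3a (Sin3a KD) or with a nonspecific control siRNA (NC). Each group had 3 libraries, each made from the polyadenylated RNA of 60 pooled embryos, so mosaicism between or within embryos cannot be seen. RFP and GFP RNA was added to every sample before extraction. Hdac1 and Hdac2 encode histone deacetylases, and Sin3a encodes the scaffold of a corepressor complex that carries them. The question put to the data was whether messages of the oocyte were still present at E2.75 and whether their levels differed between the groups.

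A growing mouse oocyte transcribes and stores the messages it will need, then falls silent before it matures. Many of these messages lose their poly(A) tails and are degraded in waves, during maturation and again once the embryo transcribes its own genome. Zona pellucida genes, the growth factor genes Gdf9 and Bmp15 and the transcription factor genes that drive them are textbook oocyte genes, and Figla and Nobox proteins switch on others of the set in the mouse oocyte. Because libraries were made from RNA caught on oligo(dT) beads, messages without a poly(A) tail would be missed.

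Normalised counts, the unit used below, are gene read counts divided by a library factor, and their sum per library was between 11.9 M and 13.5 M. Depth estimated from the steps between low values was 8.47 M to 16.8 M reads. At that depth 3 reads were worth 2.41 to 4.61 normalised counts, and values at or below that are near the limit of detection. Hdac1 and Hdac2 in Hdac1/2 cKD libraries were at 16.9% and 13.3% of their NC means, and Sin3a in Sin3a KD libraries was at 29.0% of its NC mean. In Sin3a KD libraries Hdac1 was at 34.3% and Hdac2 at 90.1% of their NC means, and in Hdac1/2 cKD libraries Sin3a was at 137.7%. Hdac1 was thus low in both knockdown groups. All 16 genes of a morula list were tested, with NC levels per kb of transcript between 12.2 for Sox2 and 14162 for Pou5f1. Sequencing lanes differed between groups, so differences within a lane are given beside the results they touch. NC replicate 2 and NC replicate 3 held 11 and 23 genes listed at 0 that were at 25 or more in all other libraries, against 0 to 3 in each of the other libraries, and Zp2 is among the 11. Nothing in the labels says that the pools were collected on separate occasions, so p-values measure the spread between these libraries, which may be technical.

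All but Figla and Nobox were listed above 0 in at least 8 of the 9 libraries, and per kb in NC embryos all 10 lay below every morula gene but Sox2. Compared per kb of transcript, Zp3 was the highest of the 10 in NC embryos, at 61.1 ± 16.4 normalised counts per kb (SD, n = 3), which put it at percentile 64.4 of 19072 genes with a known length. Gdf9 followed at 25.6 ± 11.2 per kb and percentile 55.1. These 2 members alone lay above the median gene in NC embryos. Zp2 was listed at 0 in NC replicate 2 and reached 22.4 per kb in the highest NC library. Zp1 was at 12.4 ± 4.24 per kb, Bmp15 at 7.49 ± 1.05 per kb, Oosp1 at 7.09 ± 0.39 per kb and Zar1 at 5.51 ± 4.37 per kb. The highest NC library reached 3.69 per kb for Mos and 0.723 per kb for Nobox, and Figla was listed at 0 in all 3 NC libraries. In NC embryos 7 of the 9 pairs of neighbours in this order overlapped in their ranges, the exceptions being Zp3 over Gdf9 and Zp1 over Bmp15. Zp3 and Gdf9 were also the top members in Hdac1/2 cKD embryos, at 76.4 ± 11.5 and 35.2 ± 6.12 per kb, where their ranges did not overlap. In Sin3a KD embryos Zp3 at 46.1 ± 2.89 per kb and Gdf9 at 36.9 ± 7.87 per kb did overlap.

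**Figure D1:**
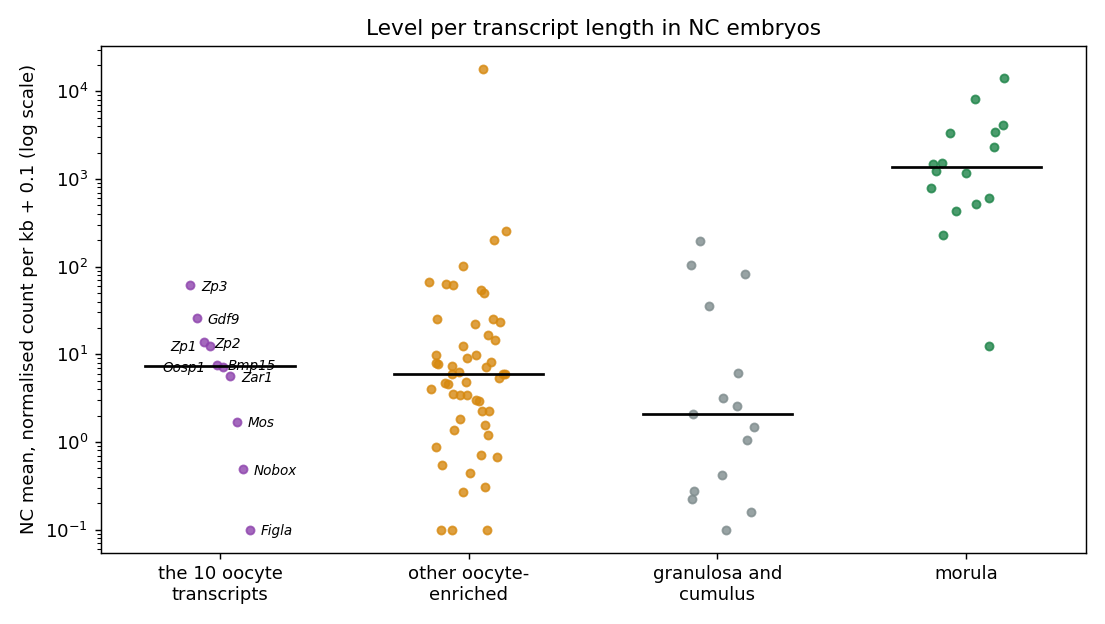
Mean level per kb of transcript in the 3 NC libraries (normalised count per kb + 0.1, log scale) for the 10 oocyte transcripts, other oocyte-enriched genes, granulosa and cumulus markers and morula genes. Each point is 1 gene and the line is the median; Zp3 at 61.1 per kb lies highest of the 10, and most morula genes lie above it. The Zp2 mean includes the library in which it is listed at 0.

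Among 54 other oocyte-enriched genes with a known length, 6 stood above Zp3 and 9 above Gdf9 per kb in NC embryos. Dppa3, a maternal gene that the embryo also transcribes, was the highest of them at 18010 per kb. Ybx2, which encodes an RNA-binding protein that stabilises stored oocyte messages, was at 254 per kb, and the ubiquitin hydrolase gene Uchl1 at 102 per kb. The 10 transcripts were thus not the most abundant oocyte-enriched messages in these embryos, and without an oocyte sample a message kept since the oocyte and one transcribed anew cannot be told apart. Markers of granulosa and cumulus cells, which surround the oocyte, differed among themselves. Cyp19a1 was listed at 0 in 7 of 9 libraries and Has2 and Nr5a1 in 6 of 9, whereas Amhr2 was at 194 per kb in NC embryos, above Zp3. Foxl2 was above 0 in all 9 libraries, at 8.01, 25.2 and 35.4 normalised counts in Hdac1/2 cKD, 41.6, 21.7 and 15.2 in Sin3a KD, against 3.97, 7.41 and 7.77 in NC libraries. Foxl2 lay above NC in all libraries of both knockdown groups. Of all tested genes, 33.1% (Hdac1/2 cKD) and 27.1% (Sin3a KD) had groups that did not overlap NC. Nothing is read from this, as Foxl2 reached 10 normalised counts, the level asked for in the tests below, only in knockdown libraries. Of 20 such markers 15 were in the table, and their summed level was 821 to 859.5 in Hdac1/2 cKD, 949 to 1127 in Sin3a KD, against 873 to 971 in NC libraries, most of it from Amhr2, Serpine2, Inhbb and Hsd17b1. In the comparisons below 0 of the 8 tested markers, Foxl2 among them, passed the test, where 7.96% to 17.3% of all tested genes did. Their part in the levels of the oocyte transcripts was not tested.

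Zp1, Zp2 and Zp3 encode the glycoproteins of the zona pellucida, the coat of the egg that sperm bind. They lie on chromosomes 19, 7 and 5 in build GRCm38. Zp3 spans positions 135980099 to 135988624 of chromosome 5 on the plus strand and has 8 exons. It had 87.3, 98.5 and 118 normalised counts in Hdac1/2 cKD libraries, 62.2, 64.1 and 56.7 in Sin3a KD libraries, and 77.4, 60.9 and 104 in NC libraries. The Hdac1/2 cKD libraries all lay above the Sin3a KD libraries, while NC libraries overlapped both knockdowns. Zp2, at 120126772 to 120145291 of chromosome 7 on the minus strand with 18 exons, had 36.5, 28.7 and 34.3 in Hdac1/2 cKD, 39.9, 52.0 and 32.7 in Sin3a KD, against 40.6, 0 and 49.8 in NC libraries. Apart from the NC library listed at 0, Zp2 stayed between 28.7 and 52.0 and the groups overlapped. Zp1, at 10914287 to 10920632 of chromosome 19 on the minus strand with 12 exons, had 18.3, 14.0 and 16.2 in Hdac1/2 cKD, 42.9, 11.2 and 19.8 in Sin3a KD, against 18.4, 33.9 and 20.8 in NC libraries. Its Hdac1/2 cKD libraries all lay below its NC libraries, with a gap of less than 1 normalised count, and its Sin3a KD libraries spanned both groups.

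**Figure D2:**
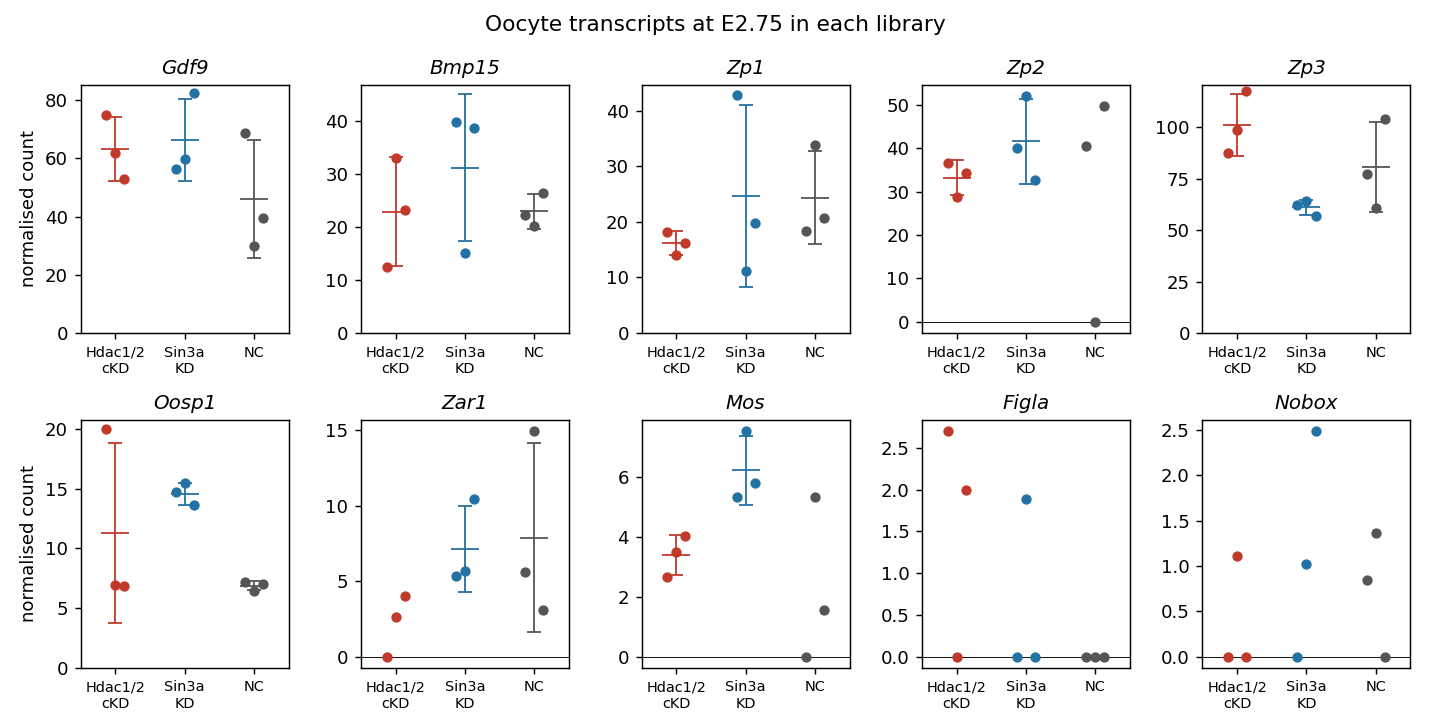
Normalised count of each of the 10 oocyte transcripts in every library, by group. Points are libraries, and horizontal marks with bars are the mean ± SD of 3 libraries, drawn only for groups with no library listed at 0; Zp3 is higher in all 3 Hdac1/2 cKD libraries than in all 3 Sin3a KD libraries, and Oosp1 is higher in all 3 Sin3a KD libraries than in all 3 NC libraries.

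The stretches before the start sites of Zp3 and Oosp1 are shown as examples, picked for the widest gaps between non-overlapping groups after the values were seen. Such groups were found in 39.7% of all tested genes in the comparison concerned for Zp3 and in 27.1% in that for Oosp1. Oosp1 entered the tests below mainly through its Sin3a KD libraries, so nothing is read from its gap. FIGLA, whose own message was at the floor here, acts through E-boxes in zona gene promoters of the mouse, and a link to these levels was not tested. The stretches are the 250 bases upstream of the RefSeq start in GRCm38.p6, read 5′ to 3′ along the gene's strand, with every CANNTG E-box in capitals. Zp3 is chr5:135979855-135980104 on the plus strand, with E-boxes 181, 134 and 55 bases upstream of the start, and Oosp1 is chr19:11691052-11691301 on the minus strand, with E-boxes 249, 194, 93, 59 and 48 bases upstream. The GENCODE span of Oosp1 reaches 11691150, beyond the RefSeq start, so its E-boxes at 93, 59 and 48 lie inside that span.
Zp3: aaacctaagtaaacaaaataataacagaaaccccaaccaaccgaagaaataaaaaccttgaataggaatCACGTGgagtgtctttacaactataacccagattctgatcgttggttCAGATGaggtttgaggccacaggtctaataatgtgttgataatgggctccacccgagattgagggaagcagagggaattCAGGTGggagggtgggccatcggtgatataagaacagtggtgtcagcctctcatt
Oosp1: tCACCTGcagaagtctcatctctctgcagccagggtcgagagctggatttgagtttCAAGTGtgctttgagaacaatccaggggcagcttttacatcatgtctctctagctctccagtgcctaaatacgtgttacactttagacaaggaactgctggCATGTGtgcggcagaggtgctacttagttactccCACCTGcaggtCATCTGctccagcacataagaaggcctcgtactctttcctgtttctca

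RefSeq promoters were matched for 6 of the 10 members, Zp3, Oosp1, Bmp15, Figla, Nobox and Zar1. All 6 held at least 1 CANNTG, a motif that reads as CANNTG on both strands and was present in 66.2% of 32536 promoters of the same length. The form CAGGTG, searched on both strands, was present in 5 of the 6, all but Bmp15, against 17.3% of all promoters. The homeobox motif TAATTA was found in Bmp15 alone, against 4.84% of all promoters, and TAATTG in 0 of the 6, against 7.18%. The RefSeq and GENCODE starts differ for some of these genes. The Figla stretch, 86016941 to 86017190, lies wholly inside its GENCODE span of 86016171 to 86020996. The CAGGTG of Zar1, 83 bases upstream of the RefSeq start, also lies inside its GENCODE span. These are matches of letters only.

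Gdf9 and Bmp15 encode related growth factors of the TGF-beta family that the oocyte secretes to the surrounding granulosa cells. Gdf9, at 53431023 to 53437904 of chromosome 11 on the plus strand with 2 exons, had 74.8, 61.7 and 53.0 normalised counts in Hdac1/2 cKD, 56.3, 59.9 and 82.4 in Sin3a KD, against 68.6, 29.9 and 39.5 in NC libraries. Its lowest values, 29.9 and 39.5, were both in NC embryos, and NC replicate 1 lay within both knockdown groups. Bmp15, at 6314107 to 6320721 of the X chromosome on the minus strand with 2 exons, had 12.4, 33.1 and 23.2 in Hdac1/2 cKD, 39.9, 15.1 and 38.6 in Sin3a KD, against 22.2, 20.1 and 26.4 in NC libraries. NC libraries of Bmp15 lay close together, between the extremes of both knockdown groups. Oosp1, which encodes a small protein secreted by the oocyte, lies at 11667460 to 11691150 of chromosome 19 on the minus strand with 5 exons. It had 19.98, 6.98 and 6.85 in Hdac1/2 cKD, 14.7, 15.5 and 13.6 in Sin3a KD, against 7.21, 6.47 and 6.99 in NC libraries. All Sin3a KD libraries lay above all NC libraries, and in Hdac1/2 cKD embryos 1 library was high while the other 2 lay at the NC level.

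Stored oocyte messages that are given a new tail during maturation carry a cytoplasmic polyadenylation element near their 3′ end. TTTTAT or TTTTAAT was searched on the mRNA strand in the last 100 bases of the 3′ untranslated region, in the GENCODE vM21 transcripts, or in all of it where it was shorter. Gdf9 alone of the 10 held a match, 33 bases from its end, against 17.8% of 19382 genes with a window of that length. The 3′ untranslated regions of Zp3, Zp1 and Zp2 were only 13, 34 and 49 bases long, so less was searched in them, and the 17.8% does not apply to them. Only the annotated 3′ end of the chosen transcript of each gene was searched, for Mos that of a 126-base region. An element near another end, or of another form, would be missed. No match in Mos or another member is thus no evidence that its message lacks such an element. The site is shown with the motif in capitals, as mRNA-strand DNA of chromosome 11.
Gdf9: agagtgctgtggTTTTATgtgacggaagaa

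Zar1 and Mos act in the cytoplasm of the oocyte and egg. Zar1 encodes an RNA-binding protein that female mice need for their embryos to start development, and Mos encodes the kinase that activates the MAP kinase pathway and holds the egg at metaphase of the second meiotic division. Zar1 had 0, 2.62 and 4.02 normalised counts in Hdac1/2 cKD, 5.33, 5.66 and 10.4 in Sin3a KD, against 5.58, 14.9 and 3.11 in NC libraries. All Hdac1/2 cKD libraries of Zar1 lay below all Sin3a KD libraries and overlapped NC. Its level is uncertain, since 31.6% of its 31-base words also occur in transcripts of Gm15847 and Gm42668. Mos had 2.67, 3.49 and 4.02 in Hdac1/2 cKD, 5.33, 7.55 and 5.80 in Sin3a KD, against 0, 5.34 and 1.55 in NC libraries. It too was lower in all Hdac1/2 cKD than in all Sin3a KD libraries, with most values within a few reads of the floor.

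Figla encodes the basic helix-loop-helix factor that activates zona genes, and Nobox a homeobox factor that activates genes such as Gdf9. Figla had 2.70, 0 and 2.00 normalised counts in Hdac1/2 cKD, 0, 1.89 and 0 in Sin3a KD, and 0 in every NC library. Nobox had 0, 1.11 and 0 in Hdac1/2 cKD, 0, 1.02 and 2.49 in Sin3a KD, against 0.84, 1.37 and 0 in NC libraries. Their values were worth at most about 3 reads in any library, so no fold change is given, and a difference in either was not detectable at this depth.

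To compare the groups, genes with at least 10 normalised counts in at least 3 of 9 libraries were tested with limma on log2(value + 1), with Benjamini-Hochberg adjustment over the 13343 genes tested and a call at an adjusted p below 0.05. Zp1, Zp2, Zp3, Gdf9, Bmp15 and Oosp1 passed the filter, Oosp1 only through the 3 Sin3a KD libraries and 1 Hdac1/2 cKD library, so its differences, and its place in medians and counts over the 6, are a description and no p is given for it. Zar1, Mos, Figla and Nobox did not, and each stayed below 15 in every library. Of the 6 tested members, 0 were called in Hdac1/2 cKD against NC, where 15.6% of all tested genes were, and 0 in Sin3a KD against NC, where 7.96% were. In Hdac1/2 cKD against Sin3a KD, 0 of the 6 were called, against 17.3% of all genes. At an unadjusted p below 0.05 limma gave 0, 0 and 1 of the 6, against 29.6%, 23.9% and 30.3% of all genes. Among the 4273 genes with a mean of 10 to 100, where all 6 lie, 7.89% were called in Hdac1/2 cKD against NC, 2.2% in Sin3a KD against NC and 7.16% in Hdac1/2 cKD against Sin3a KD. The median standard error of the 6 was 0.56 on the log2 scale, against 0.25 over all tested genes, so their intervals were wide.

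In Hdac1/2 cKD against NC the median log2 fold change of the 6 was 0.41, against 0.03 over all tested genes, but it was -0.01 without NC replicate 2, in which Zp2 is listed at 0. Gdf9 had a log2 fold change of 0.52 (standard error 0.38, limma adjusted p = 0.395) and Zp3 of 0.34 (standard error 0.30, adjusted p = 0.490). The 95% interval of Gdf9 ran from -0.29 to 1.33 and that of Zp3 from -0.31 to 0.99. Both intervals included 0. Within lanes, Gdf9 differed by 1.16 on the log2 scale on lane 2 and by 0.42 on lane 3, and Zp3 by 0.60 and 0.17. Zp1 had the only non-overlapping groups among the 10, and so among the 6 tested, where 33.1% of all tested genes had them. Its log2 fold change of -0.53 had an interval from -1.77 to 0.72 (limma adjusted p = 0.587) and differences of -1.04 on lane 2 and -0.34 on lane 3. Bmp15 at -0.09 also did not pass (limma adjusted p = 0.933), and its lane differences were 0.02 and -0.18. Oosp1 had a log2 fold change of 0.47, with 0.79 on lane 2 and -0.03 on lane 3, and it was 0.01 without Hdac1/2 cKD replicate 1. Zp2 had a log2 fold change of 1.41 with an interval from -1.33 to 4.15 (limma adjusted p = 0.493), and without the NC library at 0 it was -0.43. The sign for Zp2 therefore rests on that library, the only NC library on lane 2, where the difference was 5.06, against -0.52 on lane 3. Among untested members, Zar1 had an exact 2-sided permutation p of 0.2 and Mos of 0.4, where 0.1 is the smallest that 3 against 3 allows.

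In Sin3a KD against NC, which shares its NC libraries with the comparison above, the median of the 6 was 0.45, against 0.03 over all tested genes. It was 0.18 without NC replicate 2, 0.26 without Sin3a KD replicate 3 and 0.70 without Sin3a KD replicate 2. Gdf9 again lay above 0, with a log2 fold change of 0.58 (standard error 0.38, limma adjusted p = 0.375) and an interval from -0.23 to 1.39. Its difference on lane 3 was 0.82. Oosp1 had a log2 fold change of 0.98 and a difference of 0.96 on lane 3. Of the 10, and so of the 6 tested, it alone had groups that did not overlap here. Such groups were found in 27.1% of all tested genes. Nothing is read from this, as Oosp1 entered the fit mainly through the Sin3a KD libraries. Zp3 had a log2 fold change of -0.37, from -1.02 to 0.28 (limma adjusted p = 0.495), and on lane 3 it was -0.78. Bmp15 at 0.32 and Zp1 at -0.14 did not pass, with limma adjusted p of 0.771 and 0.916, and on lane 3 they were at -0.12 and -0.45. Zp2 at 1.70, with an interval from -1.04 to 4.44 (limma adjusted p = 0.440), became -0.14 without the NC library at 0 and was -0.26 on lane 3. Mos had an exact 2-sided permutation p of 0.2 and Zar1 of 0.9.

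**Figure D3:**
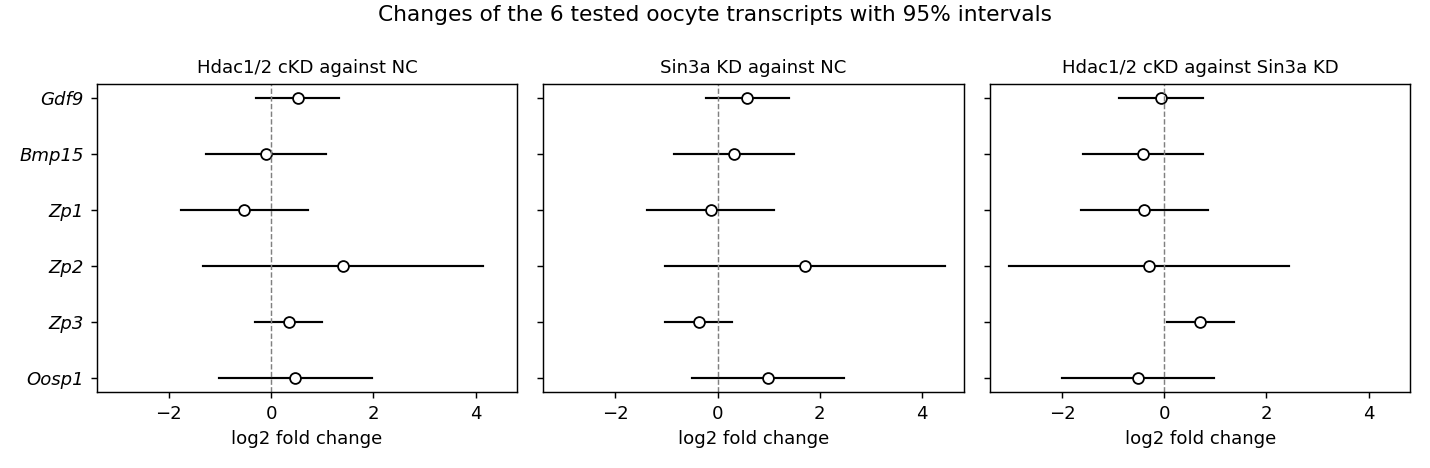
Log2 fold changes of the 6 tested oocyte transcripts in the 3 comparisons, on the log2(value + 1) scale. Points are limma estimates and lines their 95% intervals; only the Zp3 interval in Hdac1/2 cKD against Sin3a KD, 0.06 to 1.36, lies wholly on 1 side of 0, and no point passes the adjusted threshold. Oosp1 is shown as a description only.

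Between the knockdowns, Zp3 averaged 101 ± 15.2 normalised counts in Hdac1/2 cKD and 61.0 ± 3.82 in Sin3a KD libraries (SD, n = 3 each), a log2 fold change of 0.71 with an interval from 0.06 to 1.36. Its unadjusted limma p was 0.0345, and after adjustment over all genes it was 0.128, so it was not called. On lane 3 the difference was 0.95, and the lowest adjusted limma p among the alternatives was 0.0681, without trend and robust moderation. Zp3, Zar1 and Mos had groups that did not overlap, 3 of the 10. Among the tested members this was Zp3 alone, where 39.7% of all tested genes had such groups. Zar1 and Mos did not pass the filter, so that share does not apply to them. Zar1 and Mos each had an exact 2-sided permutation p of 0.1, the smallest that 3 against 3 allows. The other tested members had log2 fold changes below 0, at -0.06 for Gdf9, -0.30 for Zp2, -0.39 for Zp1, -0.41 for Bmp15 and -0.51 for Oosp1, with limma adjusted p between 0.675 and 0.939 for the first 4 of these. On lane 3 they were at -0.40, -0.26, 0.11, -0.06 and -0.98 in the same order.

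Added up, the 10 transcripts came to 250.1 to 261 normalised counts in Hdac1/2 cKD, 234 to 267 in Sin3a KD, against 173 to 252 in NC libraries. The lowest sum was that of NC replicate 2, in which Zp2 was listed at 0. Without Zp2 the sums were 218 to 227 in Hdac1/2 cKD, 182 to 229.8 in Sin3a KD, against 173 to 202 in NC libraries. Zp3 made up 21.6% to 45.0% of the sum. As a share of each library's total the 10 came to 20.3 to 21.8 normalised counts per M in Hdac1/2 cKD, 18.6 to 22.02 in Sin3a KD, against 13.5 to 19.4 in NC libraries. Without Zp3 they were 144 to 167 in Hdac1/2 cKD, 169.8 to 206 in Sin3a KD and 112 to 163.5 in NC libraries. The 3 groups overlapped in the plain sum. Per M of the total and without Zp2, all Hdac1/2 cKD libraries lay above all NC libraries and Sin3a KD overlapped NC, whereas without Zp3 all Sin3a KD libraries lay above the others and Hdac1/2 cKD overlapped NC. The order of the groups thus turned with the member left out, and no test was made on these sums. As the libraries come from whole embryos, fewer cells and less RNA per cell cannot be told apart.

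**Figure D4:**
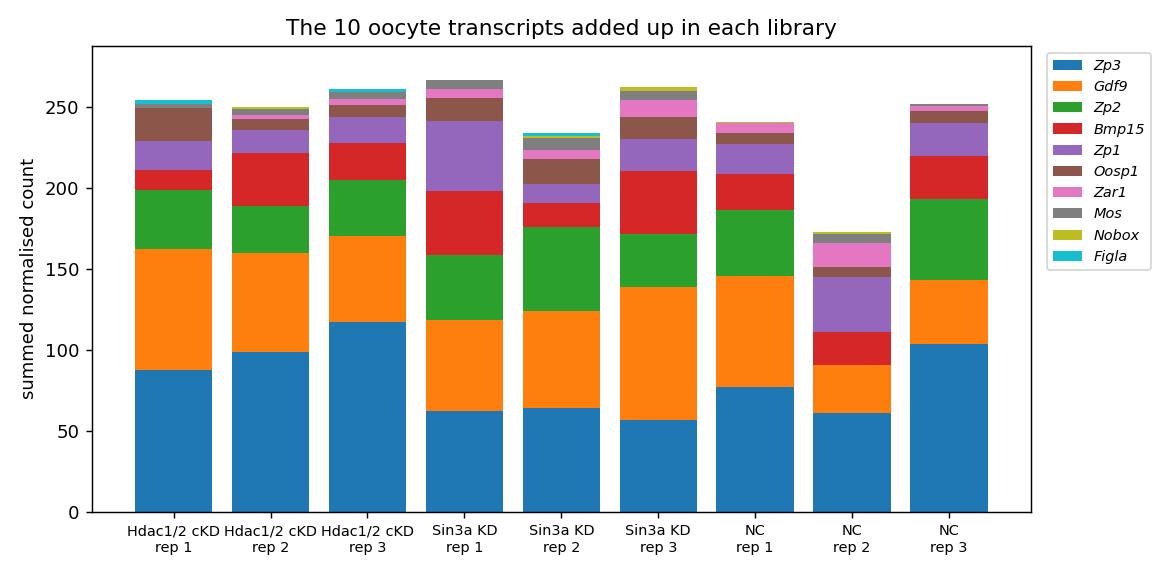
Normalised counts of the 10 oocyte transcripts stacked in each of the 9 libraries. The bars reach 250.1 to 261 in Hdac1/2 cKD, 234 to 267 in Sin3a KD, against 173 to 252 in NC libraries, and Zp3 and Gdf9 form the largest stretches of most bars.

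A companion list of 59 other oocyte-enriched genes, 56 of them in the table and 38 tested, was used to place the 10 among oocyte messages. Hdac1/2 cKD against NC gave 6 that rose, 2 that fell and 30 that did not pass, with a median log2 fold change of 0.26, where 7.81% of all tested genes rose and 7.8% fell. The 6 include Pabpc1l and Zbed3, which entered the tests mainly through knockdown libraries, so nothing is read from their calls. Ddx4, the germ cell RNA helicase gene also called Vasa, had 419, 422 and 450.0 normalised counts in Hdac1/2 cKD against 157, 216 and 132 in NC libraries, and rose by a log2 fold change of 1.38 (standard error 0.22, limma adjusted p = 0.00115). Uchl1 rose by 1.48 (standard error 0.28, limma adjusted p = 0.00325). Ybx2 had 226, 163 and 208 in Hdac1/2 cKD against 411, 472 and 391.8 in NC libraries, a log2 fold change of -1.10 (standard error 0.19, limma adjusted p = 0.00192). Messages enriched in oocytes thus moved in both directions, and the calls of Ddx4, Uchl1 and Ybx2 were kept under all 19 settings. Sohlh2, a germ cell helix-loop-helix factor gene, had 59.6, 68.7 and 78.7 in Hdac1/2 cKD against 4.77, 18.0 and 18.6 in NC libraries, but its call was lost without NC replicate 1, without Hdac1/2 cKD replicate 2 or 3, and with lane as a factor. In Sin3a KD against NC, 0 rose, 2 fell and 36 did not pass, with a median of 0.33, where 3.6% of all tested genes rose and 4.36% fell. The genes that fell were Gm15698, at -1.36, and Gpr3, whose receptor keeps the oocyte in meiotic arrest, at -1.62. Both lost their calls with lane as a factor and without trend and robust moderation, and Gpr3 also without NC replicate 3 or without Sin3a KD replicate 1 or 3. Between the knockdowns, Hdac1/2 cKD over Sin3a KD, 6 rose and 1 fell, where 8.49% of all tested genes rose and 8.78% fell, with Ddx4 at 1.98 and Ybx2 at -1.46.

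**Figure D5:**
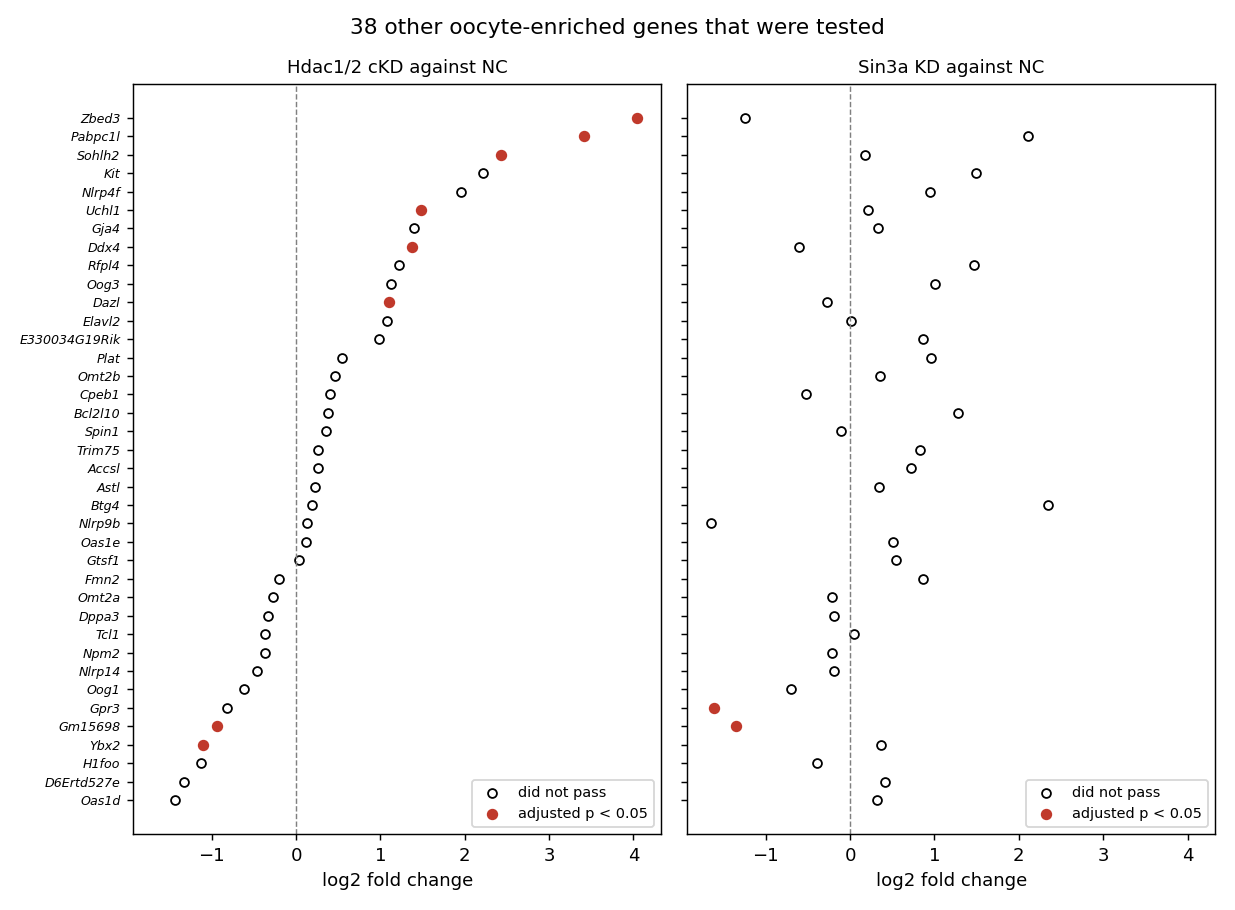
Log2 fold changes, on the log2(value + 1) scale, of 38 other oocyte-enriched genes in Hdac1/2 cKD against NC and in Sin3a KD against NC, ordered by the values of the left panel. Filled points passed the adjusted threshold of 0.05 and open points did not; 6 filled points lie above 0 and 2 below it on the left, and 2 lie below 0 on the right.

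A list of 16 oocyte transcription factor genes and partners was followed, of which 13 were tested. Whether these factors act on the promoters of the 10 in these embryos was not tested. Hdac1/2 cKD embryos showed 3 that rose, 3 that fell and 7 that did not pass against NC, where 7.81% of all tested genes rose and 7.8% fell. Tcf3, which encodes an E protein that pairs with FIGLA in the mouse, had 1853, 2014 and 1871 normalised counts in Hdac1/2 cKD against 608, 849.5 and 453 in NC libraries, and rose by a log2 fold change of 1.63 (standard error 0.19, limma adjusted p = 0.000131). The related Tcf12 rose by 1.06 (standard error 0.18, limma adjusted p = 0.0019). Zp1, Zp2 and Zp3 did not pass the test in the same embryos, and a link between Tcf3 or Tcf12 and the zona genes was not tested. In Sin3a KD against NC 0 of the 13 passed, where 7.96% of all tested genes did. At the level of single genes Foxo3 was at 0.18 and Pou5f1 at 0.06, with limma adjusted p of 0.518 and 0.680.

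Of 49 genes of messenger RNA deadenylation, decay and stabilisation, 45 were tested. Against NC, 3 rose, 5 fell and 37 did not pass in Hdac1/2 cKD embryos, with a median log2 fold change of 0.02. This is 17.8% called, near the 15.6% of all tested genes. Igf2bp3, whose protein binds and stabilises messages, had 670.5, 761.5 and 661 normalised counts in Hdac1/2 cKD against 144, 218 and 189.6 in NC libraries, and rose by 1.94 (standard error 0.19, limma adjusted p = 3.14e-05). Ythdf2, which encodes a reader of methylated RNA needed for clearance of maternal messages in the mouse oocyte, fell by 0.71 on the log2 scale (standard error 0.10, limma adjusted p = 0.000633). Zfp36l2, which encodes a destabilising protein that binds AU-rich elements, fell by 0.54 on that scale (standard error 0.12, limma adjusted p = 0.0105). The other called genes that rose were Cnot3, of the deadenylase complex, at 0.68 and Pabpc1l at 3.41, listed at 0 in NC replicates 2 and 3. Pabpc1l reached 10 normalised counts only in knockdown libraries, so nothing is read from its call. Those that fell were Cpeb3 at -0.51, Cnot2 at -0.48 and the poly(A)-binding protein gene Pabpc4 at -0.36. Genes of decay and genes of message binding thus each moved in both directions, also with Pabpc1l left out, and clearance itself was not tested. In Sin3a KD against NC 1 rose and 2 fell, namely Cpeb3 at 0.61, Ythdf1 at -0.48 and Pabpc4 at -0.42, and all of these calls were lost with lane as a factor, without trend and robust moderation and without Sin3a KD replicate 1 or 3, those of Cpeb3 and Ythdf1 also without NC replicate 3 and that of Pabpc4 without NC replicate 1. The share called in Sin3a KD against NC was 6.67%, against 7.96% of all tested genes. Hdac1/2 cKD against Sin3a KD gave 5 that rose and 5 that fell, 22.2% called against 17.3% of all tested genes.

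Genes around the signals of the members were given the same count. Of 16 tested genes around Mos and the MAP kinase pathway, 1 rose and 2 fell in Hdac1/2 cKD against NC, 18.8% against 15.6% of all tested genes. Mapk3, which encodes the kinase ERK1, rose by a log2 fold change of 1.35 (standard error 0.21, limma adjusted p = 0.00091), while Fbxo5, whose protein EMI1 restrains the anaphase-promoting complex, fell by 0.73 (limma adjusted p = 0.00149) and Dusp6, a phosphatase gene of the pathway, by 1.86 (limma adjusted p = 0.0139). The Dusp6 call was lost without NC replicate 1 and Sin3a KD replicate 1, the libraries alone on their lanes, and without trend and robust moderation. In Sin3a KD against NC 0 of the 16 passed, and in Hdac1/2 cKD against Sin3a KD 5 rose and 1 fell. That is 0% and 37.5% called, beside 7.96% and 17.3% of all tested genes. A list of 23 tested genes held receptors and signal carriers of GDF9 and BMP15, with processing enzymes and related ligands. Of these, 4 rose and 1 fell in Hdac1/2 cKD against NC, 2 rose in Sin3a KD against NC, and 2 rose and 4 fell between the knockdowns, that is 21.7%, 8.7% and 26.1% called, beside 15.6%, 7.96% and 17.3% of all tested genes. The counts include the processing enzyme gene Pcsk6, which rose in Sin3a KD against NC, and the ligand gene Bmp6, which fell between the knockdowns. The Pcsk6 call was lost in 9 of 19 alternative settings and the Bmp6 call in 5 of 18, both with lane as a factor among them. Smad1, the other gene that rose in Sin3a KD against NC, lost that call in 6 of 19, lane as a factor among them. Smad7, the inhibitory SMAD gene, fell by 0.77 in Hdac1/2 cKD against NC (limma adjusted p = 0.00716), and the receptor gene Acvr1b rose by 1.23 (limma adjusted p = 0.00803), a call lost with lane as a factor, where its adjusted p was 0.0596. Bmpr1b, whose product is a receptor for BMP15, was not tested and stayed below 8 normalised counts in every library.

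For comparison in the same fit, 11 of the 16 morula genes fell and 0 rose in Hdac1/2 cKD against NC, where 7.8% of all tested genes fell and 7.81% rose. In Sin3a KD against NC 4 fell and 0 rose, where 4.36% of all tested genes fell and 3.6% rose. Of 15 tested genes of the 2-cell stage 1 fell in Hdac1/2 cKD against NC and 0 passed in Sin3a KD against NC, that is 6.67% and 0% called, beside 15.6% and 7.96% of all tested genes. Of 13 sperm and spermatid genes 9 were in the table and 2 were tested, too few to set against the share of all genes. Of these Odf2 rose in Hdac1/2 cKD against NC by 0.51, a call lost without Hdac1/2 cKD replicate 1. The genes whose log2 values followed Zp3 most closely over the 9 libraries, among 9755 genes with a mean of at least 50, were Prdx2 with Pearson's r of 0.97, Fis1 with 0.97 and Mrps9 with 0.96. The libraries share their depth and normalisation, and these correlations are a description.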

How the data were processed

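Polyadenylated RNA from pools of 60 embryos was sequenced in 9 libraries. The submitters' processing notes name Salmon, DESeq2 and GRCm38, with no version given in the sources used here. The deposited signal values are gene read counts divided by normalisation factors by the authors, called normalised counts here. Between 64.5% and 77.5% of low values per library lay within 0.1 of a whole step, so whole reads could not be recovered and no count test was run. A row without a name, 0.00543% to 0.00896% of each total, was left out.

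The 13343 genes that reached 10 in 3 or more libraries were fitted over all 9 libraries in limma 3.58.1 under R 4.3.3 with trend and robust moderation, on log2(value + 1), a scale that shrinks the changes of low genes. Adjustment was Benjamini-Hochberg, with calls below 0.05. The step was tested on simulated data. Members outside the filter got an exact permutation test over samples. Coordinates and lengths came from GENCODE vM21 (GRCm38; 94.9% of names matched) and promoters from RefSeq (GRCm38.p6).

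Libraries ran on lanes 2, 2 and 3 for Hdac1/2 cKD, 4, 3 and 3 for Sin3a KD and 5, 2 and 3 for NC. Alternatives changed the pseudocount, filter, scaling, moderation, groups fitted, lane, replicate block and each library in turn. The members and companion lists were chosen with earlier results of these data known. Named are all 10 members, from each list up to 4 called genes with the lowest adjusted p or, where none was called, up to 2 with the highest mean, and the 3 genes most correlated with the highest member. From these, examples were picked after their values were seen. Genes that showed the levels of a list, such as Dppa3 and Bmpr1b, were also chosen after their values were seen. Added RFP and GFP RNA was not used here, so changes of total RNA per embryo cannot be seen.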

Additional observations from a re-analysis of the deposited data

How the results depend on the processing

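The count of called members was 0 in all 3 comparisons under all 19 settings. Of 330 recomputed log2 fold changes of members, 317 kept their direction, 13 did not and 0 were called. In Hdac1/2 cKD against NC, Bmp15 became 0.016 at equal totals and ran from -0.40 to 0.27 with 1 library left out (above 0 without NC replicate 3 or Hdac1/2 cKD replicate 1), and Zp2 ran from -0.43 (without NC replicate 2) to 2.40. In Sin3a KD against NC, Bmp15 became -0.061 with lane as a factor, Zp1 ran from -0.62 to 0.30 (above 0 without NC replicate 2 or Sin3a KD replicate 2) and Zp2 from -0.14 (without NC replicate 2) to 2.70. In Hdac1/2 cKD against Sin3a KD, Gdf9 ran from -0.19 to 0.10 (above 0 without Hdac1/2 cKD replicate 3 or Sin3a KD replicate 3), Zp1 from -0.82 to 0.10 (without Sin3a KD replicate 1) and was 0.098 without both libraries that are alone on a lane, and Zp2 became 1.34 with lane as a factor. With 1 library left out, Hdac1/2 cKD against NC ran from 0.26 to 0.85 for Gdf9, 0.16 to 0.54 for Zp3, -0.69 to -0.27 for Zp1 and 0.0055 to 0.71 for Oosp1. Zp3 between the knockdowns ran from 0.60 to 0.81. The cause was not tested.

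Over all genes, 2083 were called in Hdac1/2 cKD against NC, but 1369 without trend and robust moderation, 1318 without both libraries that are alone on a lane and 1271 to 2170 with a replicate left out. The 1062 calls of Sin3a KD against NC became 36 without moderation, 611 with only the groups compared, 94 with lane as a factor, 51 without the lone-lane libraries and 337 to 1538 with a replicate left out. The 2304 calls of Hdac1/2 cKD against Sin3a KD became 1002 with lane, 1384 without the lone-lane libraries and 1426 to 2748 with a replicate left out. At equal totals the share of higher calls was 67.2% rather than 50.02% in Hdac1/2 cKD against NC and 63.5% rather than 45.2% in Sin3a KD against NC, as the median of all genes moved to 0.15 and 0.12. Replicate numbers are not known to pair the libraries. Correlations of residuals were -0.0193 to 0.0581 for same-numbered libraries of different groups and -0.0432 to 0.0331 for differently numbered ones. The highest were between same-numbered libraries, and values this small do not settle whether the numbers pair them. A replicate block gave 2140, 1046 and 2372 calls, with 0 members.

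Depth limits Figla, Nobox, Mos and Zar1, whose values lie at or near 3 reads in several libraries.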
